A study of Homo sapiens with 2 samples.

Results

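The genes described here are those of the small heat shock proteins HSPB1, HSPB8 and CRYAB, of the BAG cochaperones BAG1, BAG2, BAG3, BAG5 and BAG6, and of the heat shock factors HSF1 and HSF2. They were chosen by name, and each was measured by the array row that carried exactly 1 gene symbol, taking the row with the highest mean of both arrays. Of the 10 genes, 9 had such a row among the 22465 genes so named. HSF2 had none in the platform annotation and was not analysed here.

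Small heat shock proteins share the alpha-crystallin domain and bind unfolding proteins without using ATP, holding them until other chaperones take over. Most BAG proteins carry a domain that binds the ATPase part of HSP70 and makes it release its nucleotide. Through their other domains BAG proteins send clients to the proteasome, to autophagy or to membrane insertion. Heat shock factors are transcription factors that bind repeats of the unit nGAAn, the heat shock element, and HSF1 drives most of the heat shock genes under stress. In squamous epithelium and its carcinomas HSPB1 is known as an abundant protein.

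The cells were KYSE150, a long-established cancer line from a human squamous cell carcinoma of the esophagus. Per the study's methods, the knockdown cells carried a hairpin delivered by lentivirus that targets lncRNA625, a long non-coding RNA (shlncRNA625), and the control cells a scrambled hairpin (shscramble). The methods put the stable cells under puromycin and speak of screening several clones for knockdown, so the knockdown sample may stem from 1 clone. A sample label speaks of siRNA instead. Total RNA of each was hybridized to 1 Affymetrix Human Transcriptome Array. With these 2 arrays there was no replicate, no error on any value and no test. No row was tied to lncRNA625, so the knockdown itself was not checked here. Of 7 epithelial markers with a single-symbol row, KRT5, DSG3, PKP1, SFN, EPCAM and CDH1 lay above every background probe row, and KRT14, at 5.63 on both arrays, did not. These epithelial markers were not all equal, since CDH1 differed by 0.58 on the log2 scale, KRT5 by -0.39, DSG3 by -0.27 and SFN by -0.19, and their part in the members' values was not tested. Of 17 markers of leukocytes, endothelium, fibroblasts, columnar epithelium and muscle, 16 were below the signal limit described further on and all 17 were equal on both arrays. The exception to the limit was the actin gene ACTA1 at 6.94 on both arrays, and ACTA1 is a close relative of other actin genes.

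Promoters are shown because heat shock elements are the sequences through which HSF1 acts on heat shock genes. The 2 promoters that follow belong to the members that differed between the arrays, and each shows the 250 bases before the transcription start on the coding strand, from RefSeq on GRCh38.p14. HSPB1 lies at chr7:76302423-76302672 on the plus strand and BAG3 at chr10:119651130-119651379 on the plus strand. Capitals mark a pair of heat shock units, GAANNTTC or TTCNNGAA, both of which read the same on either strand.
HSPB1: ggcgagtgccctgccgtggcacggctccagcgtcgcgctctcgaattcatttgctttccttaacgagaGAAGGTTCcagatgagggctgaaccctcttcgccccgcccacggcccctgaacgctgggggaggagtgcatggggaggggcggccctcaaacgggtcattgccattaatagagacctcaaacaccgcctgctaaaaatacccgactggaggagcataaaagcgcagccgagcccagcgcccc
BAG3: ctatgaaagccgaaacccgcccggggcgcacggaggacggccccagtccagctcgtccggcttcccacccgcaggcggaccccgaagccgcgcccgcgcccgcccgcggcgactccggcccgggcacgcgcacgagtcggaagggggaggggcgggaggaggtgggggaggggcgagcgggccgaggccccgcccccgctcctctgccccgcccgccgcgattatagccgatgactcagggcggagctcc
The HSPB1 promoter held the pair 1 time, at 182 to 175 bases before the start, and the BAG3 window held none. The next stretches show where the pair lay in the other members that had it, HSPB8 at chr12:119178827-119178866 and BAG2 at chr6:57172186-57172225, both on the plus strand. HSPB8 held a second GAANNTTC, not shown, at 5 to 12 bases after the start.
HSPB8: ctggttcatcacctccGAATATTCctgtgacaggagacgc
BAG2: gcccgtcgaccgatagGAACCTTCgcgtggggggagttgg
For comparison, the following stretches were picked to show the pair and the longer element in heat shock genes that were lower after knockdown past the 1.5-fold limit, HSPA1A at chr6:31815421-31815460 on the plus strand and HSP90AA1 at chr14:102087089-102087148 on the minus strand.
HSPA1A: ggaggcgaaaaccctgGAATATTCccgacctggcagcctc
HSP90AA1: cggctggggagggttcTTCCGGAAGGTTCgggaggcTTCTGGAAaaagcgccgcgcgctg
HSP90AA1 held 3 units in a row, TTCNNGAA extended by NNTTC, and a further pair. Of the 8 heat shock response genes lower past that limit, 6 held a pair in their promoter windows and HSPH1 and HSPA4 held none. The pair lay in 6 of their 12 windows and in 12 of the 30 windows of the whole list, against 13.5% of all single windows. The list was made of genes that HSF1 is known to drive, so this contrast with all windows is no independent support. Of the list's genes not past that limit, SERPINH1, equal on both arrays, HSPD1, at -0.18, and HSP90AB1, at -0.50, held 3 units in a row, and DNAJB1 and DNAJB4 held a pair. Whether the matches go with the differences was not tested.

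Over the members, 8 had a promoter in the table, all but CRYAB and HSF1, with 11 windows reaching from 250 bases before to 50 after the start, since a few have more than 1 start. Of these 8 genes, 3 held a pair of units (HSPB1, HSPB8 and BAG2), in 3 of the 11 windows, against 13.5% of all 35116 single promoter windows in the table. Of the 8 genes 0 held 3 units in a row, that is GAANNTTC extended by NNGAA or TTCNNGAA extended by NNTTC, which 0.490% of all promoters did. The 3 units always contain the pair. Among the heat shock response genes described further on, 17 had a promoter in the table, with 30 windows in all. The pair was in 12 of the 30 windows, from 11 genes, and the 3 units in 6 windows, from 6 genes. A CCAAT box (CCAAT or ATTGG) and a TATA box (TATAAA or TTTATA) were found in HSF2 alone among the members, against 34.6% and 11.5% of all promoters. These are matches of letters in a short window, and nothing here measured a factor bound to them.

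**Figure D1:**
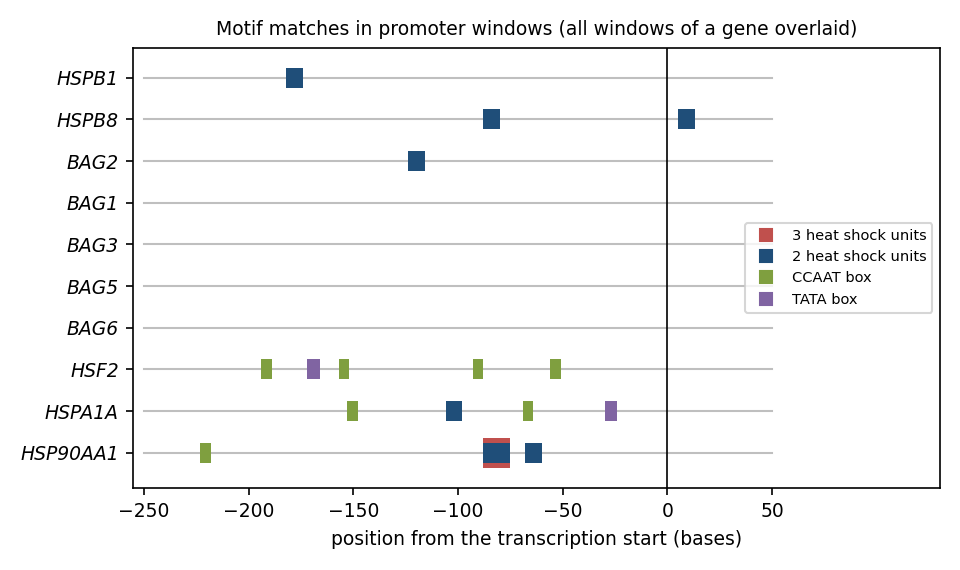
Matches of heat shock units, CCAAT box and TATA box in the promoter windows of 8 members and of HSPA1A and HSP90AA1. The horizontal axis is the position in bases from the transcription start, and the windows of a gene with several starts are drawn on 1 line. The 3 units in a row appear in HSP90AA1, and pairs in HSPB1, HSPB8, BAG2, HSPA1A and HSP90AA1.

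Of the 9 measured members, 7 had exactly the same value on both arrays, HSPB1 was slightly higher and BAG3 slightly lower on the knockdown array, and neither passed 1.5-fold. A limit was set on signal, the median of all rows with 1 symbol, 4.97 on the deposited log2 scale, and 7 members and 11323 genes in all had a mean at or above it. Past the 1.5-fold limit 0 of these 7 members were higher and 0 lower, against 1.11% and 0.477% of all genes past the limit. By any amount, 1 member was higher and 1 lower, against 11.8% and 12.1% of all genes. These counts of small differences depended on the scaling. With the medians of both arrays set equal 6 of the 7 members were lower, as were 88.9% of all genes, and after a second quantile normalization 6 of 7 and 74.5%. As deposited, the other 5 were equal on both arrays, as were 76% of all genes past the limit. The median difference was 0 for these members and 0 for all genes. Equality here means equality in every deposited digit, and since it held for so many genes, strong rows among them, a 0 does not show that a gene was unchanged. In such bulk RNA fewer cells that express a gene and less of its RNA per cell cannot be told apart.

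**Figure D2:**
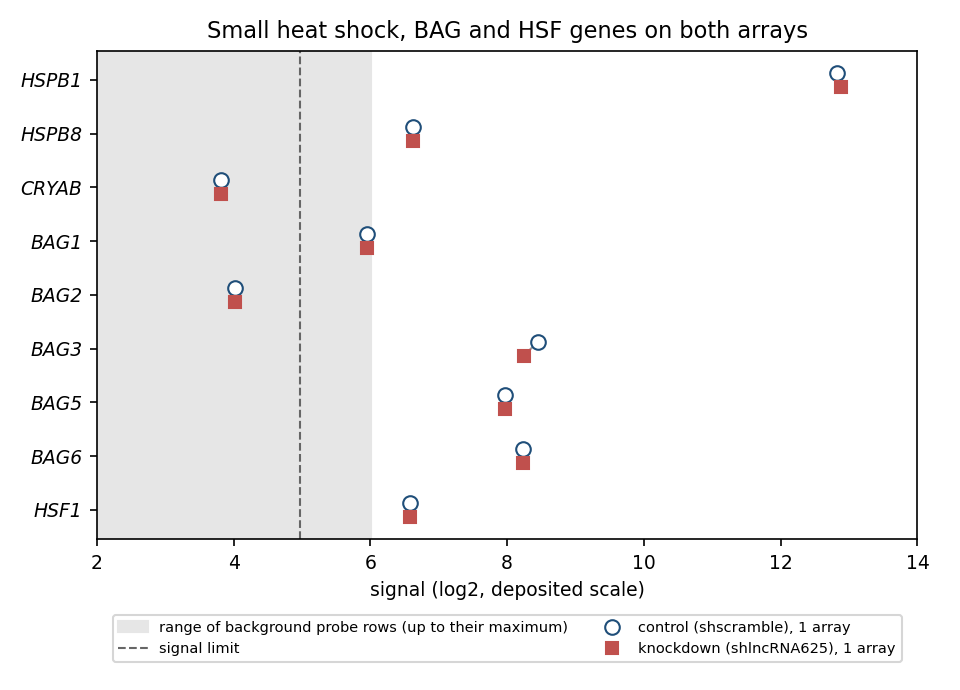
Signal of the 9 measured members on the control array (open circles) and the knockdown array (squares), on the deposited log2 scale, 1 array each. The shaded band runs up to the brightest background probe row, 6.003, and the dashed line is the signal limit of 4.97; HSPB1 and BAG3 are the 2 genes whose points lie apart along the axis.

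HSPB1, also called HSP27, is a small heat shock protein that protects cells from heat and oxidation and binds actin. Its signal was 12.82 in shscramble cells and 12.89 in shlncRNA625 cells. The difference was 0.065 on the log2 scale, a ratio of 1.05 of knockdown over control. This was a strong row, far above the background probe rows, which reached 6.003 with a median of 3.34. Of the 278 genes whose mean signal lay within 0.5 of that of HSPB1, 141 were equal on both arrays and 37, or 13.3%, were higher by at least as much. Rows of like brightness thus often showed an excess of this size. Pseudogenes of HSPB1 are annotated, and whether its probes also pick up their sequence was not tested.

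HSPB8, also called HSP22, works with BAG3 in a complex that hands damaged proteins to autophagy. It was at 6.62 on both arrays. This was above the brightest background row by less than 1 log2 unit. CRYAB, or alpha B-crystallin, is the small heat shock protein of the eye lens and of muscle. It was at 3.82 on both arrays, below the signal limit and inside the range of the background rows, so no level of CRYAB could be told from background. Of the other small heat shock genes, HSPB3, HSPB6, HSPB7, HSPB9 and CRYAA had a row of their own. These 5 genes were equal on both arrays and 0 of them reached the signal limit. HSPB2 is carried by a row that also names another gene, and no row was found under the symbol HSPB11, so no value was taken for either. Among the small heat shock genes measured here, HSPB1 and HSPB8 were the 2 past the limit.

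BAG3 is the BAG protein that heat and other stress induce through HSF1, and it links HSP70 to small heat shock proteins through its IPV motifs. It was at 8.45 in shscramble cells and at 8.24 in shlncRNA625 cells. The difference was -0.21 on the log2 scale, a ratio of 0.865 of knockdown over control. It was the member farthest from 0. Of 1603 genes within 0.5 of its mean signal, 1206 were equal on both arrays and 62, or 3.87%, were lower by at least as much.

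The other BAG genes showed no difference. BAG1, which brings HSP70 to the proteasome and also binds BCL2, was at 5.94 on both arrays, just under the brightest background row. BAG2, which inhibits the ubiquitin ligase CHIP, was at 4.02 on both arrays, below the signal limit and inside the background range. BAG5, which holds several BAG domains, was at 7.97 on both arrays. BAG4, not among the 10 genes chosen, was likewise equal, at 8.91. BAG6, a large protein that guards newly made membrane proteins with a tail anchor and lies in the MHC region, was at 8.23 on both arrays. BAG6 is also carried by 6 rows on alternative haplotypes of that region, which list an older symbol of the gene beside the current one. These rows lay between 8.16 and 8.23 and were each equal on both arrays, but rows on the haplotypes can share probes and are not separate measurements of BAG6.

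HSF1, the main regulator of the heat shock response, was at 6.57 on both arrays, above the brightest background row by less than 1 log2 unit. The signal is that of its RNA, while HSF1 is known to be controlled mostly as a protein, by binding to HSP90 and HSP70, by trimerization and by phosphorylation. HSBP1, a small protein that binds the trimers of HSF1, was at 11.31 on both arrays. HSF5, a testis factor, and HSF2BP, a partner of HSF2, were below the signal limit and equal. HSF4 is carried by a row that names a second gene, so no value was taken for it.

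Around the members, the genes of the heat shock response that HSF1 is known to drive were lower on the knockdown array in most cases. A list of 22 such genes, with the members left out, had 18 genes with a row, all past the signal limit. The list was chosen with earlier results of these data known, so its counts describe these 2 arrays and are no independent support. Of these 18 genes 0 were higher, 4 equal and 14 (77.8%) lower, against 12.1% of all genes that were lower. Among the equal genes, UBB at 5.82 lay below the brightest background row. Past the 1.5-fold limit were 8 of the 14, against 0.477% of all genes. The median difference was -0.49 on the log2 scale, against 0 over all genes. These shares over all genes are not matched for signal. Equal values were fewer among bright rows, with 50.7% of genes near HSPB1 in signal equal, against 86.2% near HSPB8. Several genes of the list, such as HSP90AA1, HSP90AB1 and STIP1, were brighter than HSPB1, and the list was not compared with genes of like signal. The list was led by HSPH1, an HSP110 exchange factor, with -1.38, by HSPA1A, the stress-induced HSP70, with -1.23, by HSPA4L with -1.04 and by DNAJA1, an HSP40, with -0.97. HSPA1A had a single-symbol row only on alternative haplotypes. Without these rows the list held 13 lower genes of 17, with a median of -0.48. BAG3 was lower by 0.21 and HSPB1 was not lower. Both are textbook targets of HSF1, whose activity was not measured here. Of the 18 genes, 11 were lower than BAG3 in their difference, and 0 of the 18 were higher on the knockdown array. The excess of HSPB1 was small, since 13.3% of genes of like signal were higher by at least as much. Whether the members differ from the list was not tested, since 1 array per group allows no test.

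**Figure D3:**
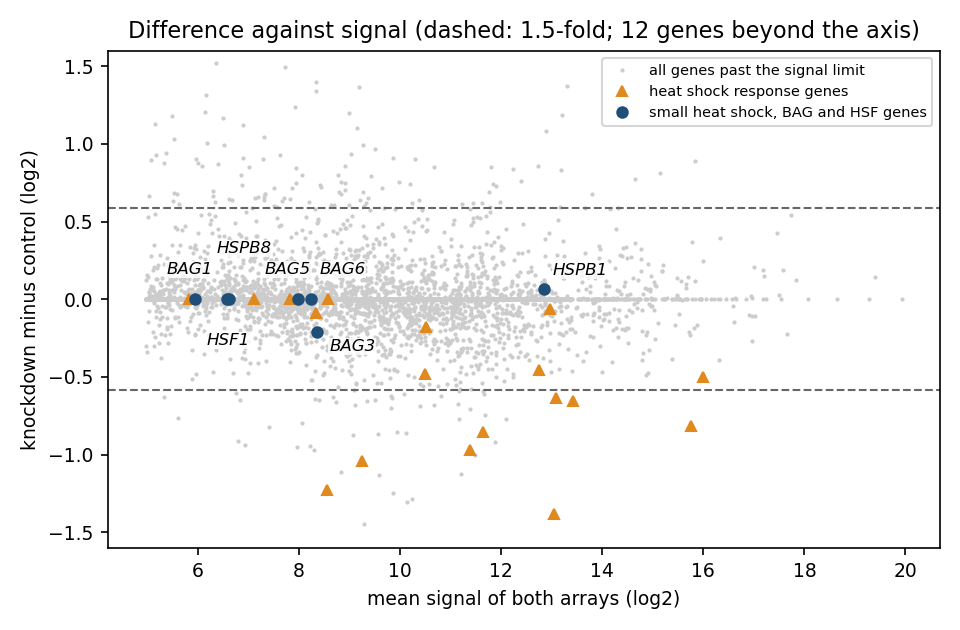
Difference of knockdown minus control (log2) against the mean signal of both arrays (log2) for all 11323 genes past the signal limit, with the 18 heat shock response genes as triangles and the 7 members as filled circles. Dashed lines mark 1.5-fold, and 12 genes lie beyond the vertical axis; 8 triangles lie below the lower line while the members stay between -0.21 and 0.065.

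Most BAG proteins act on HSP70, and 16 genes of HSP70 proteins, exchange factors and regulators had signal past the limit. In this list 8 genes were equal and 8 lower, against 76% and 12.1% of all genes, and 4 were lower past 1.5-fold, against 0.477%. The median was -0.0052, and -0.11 over the 12 genes past the 75th percentile of signal. HSPA4, an HSP110 family member, was the fourth of them past 1.5-fold with -0.64, after the HSPH1, HSPA1A and HSPA4L named above. These 4 genes are also in the heat shock response list and were already counted there. STUB1, which encodes the ligase CHIP, was at 8.59 on both arrays, and ST13, HSPBP1 and SIL1 were also equal. Of the equal genes in this list, SIL1 at 5.53, HSPA2 at 5.91 and HSPA12A at 5.19 lay below the brightest background row. Of 8 partners of BAG1 and subunits of the proteasome, 6 were lower and 2 equal, against 12.1% and 76% of all genes, and 0 passed the 1.5-fold limit. The median was -0.17. PSMC4, PSMD2, PSMD1 and PSMC2, subunits of the proteasome's regulatory particle, differed by -0.40, -0.38, -0.36 and -0.23. BCL2 was at 6.65 on both arrays. PSMC4, at 13.82 in shscramble cells, and PSMC2, at 13.34, were brighter than HSPB1. Of genes near HSPB1 in signal 50.7% were equal, fewer than the 76% of all genes. Neither list of this paragraph was compared with genes of like signal.

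Most partners of BAG3 and BAG6 were equal on both arrays, as were 76% of all genes past the signal limit, so that their counts stand near the share of all genes. Of 9 genes of the selective autophagy that BAG3 and HSPB8 start, 7 were equal, YWHAG, a 14-3-3 protein, differed by -0.069 and SYNPO, synaptopodin, by 0.030. SQSTM1, the autophagy receptor p62, was at 8.37 on both arrays. All 6 measured genes of the tail-anchored protein pathway, in which BAG6 works with GET4, were equal on both arrays. Among them were GET4 at 6.89, GET3 at 9.77 and SGTA at 9.36, while GET1, at 5.86, lay below the brightest background row.

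**Figure D4:**
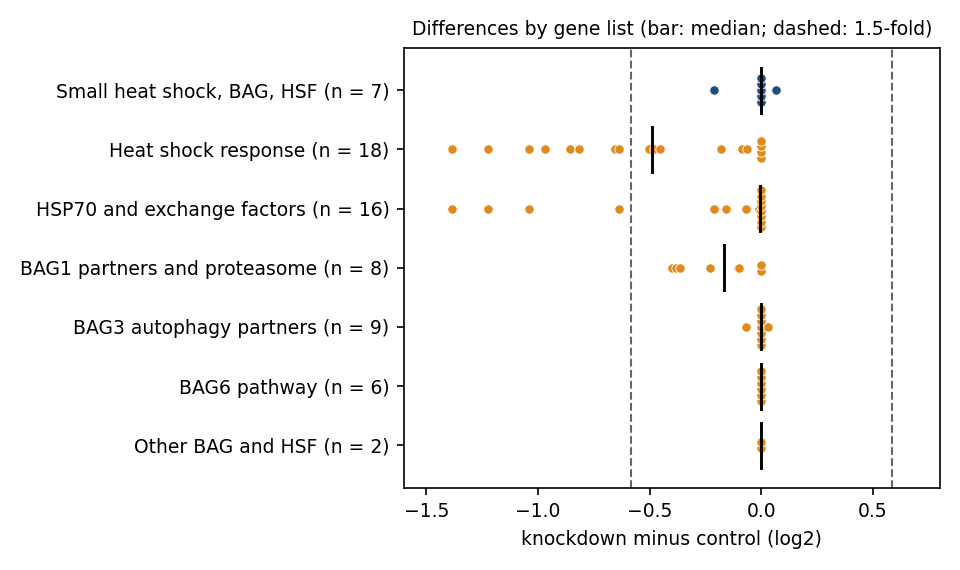
Differences of knockdown minus control (log2) of single genes past the signal limit, grouped by list, with the number of genes beside each name. Points are genes, the black bar is the list median and the dashed lines mark 1.5-fold; the heat shock response list has its median at -0.49, and the small heat shock, BAG and HSF genes at 0.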

How the data were processed

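Biotin-labelled material made from total RNA was hybridized to Human Transcriptome Arrays, 1 array per group. The authors deposited log2 values, for which the labels name RMA (background correction, quantile normalization and a summary over probes) without a version. The values ran from 1.79 to 19.93, above the 16 that a 16-bit scanner allows on this scale, and no source used here states the step behind this. The number of arrays limits the precision. Symbols were updated by gene ID to RefSeq (GRCh38.p14), which matched 21497 of 23781 rows with 1 symbol. Differences are knockdown minus control, with the study's 1.5-fold limit, and 2-fold, from its methods, as an alternative. Further alternatives were equal medians, a second quantile normalization, removal of a loess trend (span 0.3), averaging the rows of a gene, no haplotype rows, no filter and a filter at the 75th percentile. Counting BAG6 rows with several symbols, and lists without haplotype rows, were chosen after seeing the data. The members and lists were chosen with earlier results of these data known. Named genes are the members and, per list, up to 4 genes with the largest absolute difference; others were named after their values were seen. Motifs were searched in RefSeq promoters. Protein sequences were not analysed here. The steps were tested on simulated data with planted shifts past the 1.5-fold limit, in single-row genes well above the signal limit. That test does not cover differences as small as those of the members. Python 3.11.15, pandas 2.3.3, NumPy 2.4.6, statsmodels 0.14.6 and matplotlib 3.10.9 were used.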

Additional observations from a re-analysis of the deposited data

How the results depend on the processing

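No paired analysis was possible because each group held 1 array, and for the same reason no replicate could be left out. Under the alternatives for scaling, trend, rows and haplotypes, 46 differences of single members were computed. They kept their sign or stayed within 0.1 of 0, moved by at most 0.036 on the log2 scale, and 0 passed 1.5-fold. Each measured member had 1 single-symbol row, and none of these lay on a haplotype. Averaging rows and leaving out haplotype rows thus could not move a member's value, and only the scaling alternatives moved any. The count of members lower by any amount was 6 of 7 with equal medians, which adds -0.011 to every difference and so turns an equal value into a small negative one. It was also 6 of 7 after a second quantile normalization, where the shifts differed between members. The median of HSP70 and its exchange factors became -0.11 under the stricter filter, the 75th percentile, which kept 12 genes. The loess trend was 0 at each member. The other small heat shock genes had no gene past the signal limit and so no median to compare.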

Other observations

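Rows that name both HSPA1A and HSPA1B were left out of the lists, since their signal cannot be given to either gene. There were 6 such rows, 4 of them on alternative haplotypes, with control values from 11.40 to 12.35 and differences from -1.99 to -1.40 on the log2 scale. A row that names HSPA8 with SNORD14C and SNORD14D was at 16.90 in shscramble cells and at 15.70 in shlncRNA625 cells, which differ by -1.19.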
